A study of Mus musculus with 4 samples.

Results

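The genes described here are 9 of the 32285 genes in the count matrices, chosen by symbol: the ligands Gdf5, Bmp2, Bmp4 and Bmp6, the secreted antagonists Grem1, Chrd, Chrdl1 and Nog, and the membrane pseudoreceptor Bambi. All 9 symbols were found, each in a single row. The study compared punctured with intact tail intervertebral discs of wildtype female C57BL/6 mice, 12 weeks old, by single-cell RNA sequencing (10x Genomics 3' libraries, in which a unique molecular identifier, UMI, marks each captured transcript). In the injured group the discs of the upper tail levels (CC5/6 to CC9/10) had been punctured on both sides with a 30-gauge needle 7 days before. The control group was made of discs further down the tail (CC12/13 to CC16/17) of the same animals, so both groups come from injured mice and differ in tail level as well as in puncture. Each library pooled 30 discs from 6 mice, and its cells were frozen, thawed and sorted on DAPI. Each group has 2 libraries, from 2 rounds of the experiment.

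Bone morphogenetic proteins (BMPs) and growth and differentiation factors (GDFs) are secreted dimers of the TGF-beta superfamily. They bring together type I and type II serine/threonine kinase receptors, which phosphorylate SMAD1, SMAD5 and SMAD9, and these enter the nucleus with SMAD4 and switch on genes such as Id1 and Id3. Gremlin, chordin, chordin-like 1 and noggin bind ligands outside the cell and keep them from the receptors, and BAMBI resembles a type I receptor without the kinase. In the disc and in other cartilage this pathway is known for its part in chondrocyte differentiation and matrix synthesis, and Gdf5 for its part in joint formation.

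The matrices held between 1114210 and 16972879 UMIs per library, and 219, 730, 856 and 1834 barcodes with at least 250 genes entered the comparisons (control and injured of round 1, then control and injured of round 2). In round 1 the control and injured matrices shared barcodes: of 378 control cells, 104 had far more UMIs in the injured matrix and 55 a similar number, and these were left out together with 48 injured cells. Cells were clustered without the 9 genes or any other gene of the pathway. Of 15 clusters, 4 carried between 6 and 12 markers of inner annulus or cartilage and form the inner annulus-like class, though not the same markers: Acan and Sox9 marked the Saa1, Nos2 and Cnmd clusters, Col2a1 the Saa1, Nos2 and Myoc clusters and Chad the Cnmd and Myoc clusters. Each is named by a leading gene. The Cnmd cluster (also Sfrp5 and Ucma) held 101, 35, 209 and 86 cells in the same order of libraries, and the Myoc cluster (also Angptl7 and Fmod) 31, 73, 64 and 358. Myoc and Angptl7 are themselves on the list of outer annulus or fibroblast markers used for naming. The Myoc cluster was placed in the class by its 12 markers of inner annulus or cartilage. The Saa1 cluster (also Chil1 and Lcn2) held 2, 131, 21 and 526 cells and the Nos2 cluster, led by the inflammatory genes Nos2, Cxcl2 and Cxcl1, 4, 260, 8 and 146. The class therefore consisted mostly of Cnmd cells in the controls and mostly of Saa1, Nos2 and Myoc cells after injury. Outer annulus-like cells numbered 5 and 13 in the controls, too few to compare between groups, and 3 clusters of the kind that held mostly shared barcodes among the round 1 control cells, when these were kept, were left without a name. The largest of them, the Dpep1 cluster, carried 5 fibroblast markers and held 0, 11, 267 and 7 cells, with a median of 383 UMIs in control round 2; with it the outer annulus-like cells of control round 1 would still number 5.

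Grem1 (ENSMUSG00000074934, GRCm38 chr2:113746164-113758646, minus strand) is the gene on which most of the results below turn, so the sequence upstream of its start is shown. It comes from RefSeq's promoter windows for GRCm38.p6; 3 other members found there are Bmp4, Bmp6 and Chrd. The 250 bases lie at chr2:113758649-113758898 and are given 5′ to 3′ on the minus strand. Capitals mark GGCGCC, the palindromic GC-rich element to which SMAD1 and SMAD5 are known to bind.
Grem1 upstream: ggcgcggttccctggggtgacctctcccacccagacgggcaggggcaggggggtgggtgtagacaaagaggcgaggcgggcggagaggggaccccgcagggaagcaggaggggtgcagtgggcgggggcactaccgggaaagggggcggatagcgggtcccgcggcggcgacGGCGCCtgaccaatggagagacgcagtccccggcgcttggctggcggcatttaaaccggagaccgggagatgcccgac
GGCGCC occurred 1 time here, from 78 bases before the start, and also in the window of Chrd but not in those of Bmp4 and Bmp6. Of 32851 windows of this length, 9.59% held it. A match of letters is a description and no evidence of binding. Gdf5 (ENSMUSG00000038259, chr2:155941023-155945367, minus strand) and Bmp2 (ENSMUSG00000027358, chr2:133552159-133562885, plus strand) lie on the same chromosome.

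Most UMIs of these genes other than Bmp4 were found in inner annulus-like cells. These cells held 76.0% of all UMIs, but 98.2% of the 2034 Grem1 UMIs, 98.1% of the 22898 Bmp2 UMIs, 97.0% of the 2104 Gdf5 UMIs and 96.4% of the 1465 Bmp6 UMIs. The class held 94.2% of Nog and 89.0% of Bambi UMIs. For Chrd and Chrdl1 its share, 79.4% and 74.2%, was near that of all UMIs, and Bmp4 had 96 UMIs in all, 49.0% of them in this class. Levels below are UMIs of a gene per 1000000 UMIs (CPM) of the cells named, with no correction for gene length, so they are compared between cells and not between genes. Cluster means are over libraries with at least 20 cells of the cluster.

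Gdf5, a ligand of developing joints, was highest in the Saa1 cluster, with 154 and 279 CPM in the injured libraries of rounds 1 and 2 and 354 CPM in the round 2 control (mean 262 ± 101, SD, n = 3). The Nos2 cluster followed with 110 and 223 CPM in the injured libraries, a range that overlaps that of the Saa1 cluster. Levels in the Cnmd cluster ran from 28.8 to 167 CPM and in the Myoc cluster from 13.1 to 47.9. In macrophage-like cells, which should lack the gene, it reached 5.59 CPM in injured round 1 and 49.5 in injured round 2, where its 15 UMIs lay in 3 of the 91 cells. Gdf5 was also among the 10 leading genes of the Saa1 cluster, although it took no part in the clustering.

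Bmp2, a ligand that drives cartilage and bone formation, was highest in the Nos2 cluster, with 3693 CPM in injured round 1 and 1647 CPM in injured round 2. The 8 control cells of this cluster in round 2 gave 193 UMIs, or 2038 CPM, and the 4 of round 1 gave 48, or 1575 CPM. Levels in the other inner annulus-like clusters ranged from 553 to 1569 CPM in the Saa1 cluster, from 219 to 1163 in the Cnmd cluster and from 190 to 1028 in the Myoc cluster, and these ranges overlap. Within every one of these clusters the round 1 libraries were above the round 2 library of the same group, wherever both had at least 20 cells. Macrophage-like cells held 11.2 and 16.5 CPM.

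Bmp6, another osteogenic ligand, averaged 140 ± 20.4 CPM (SD, n = 3) in the Saa1 cluster, 104 ± 12.9 (n = 2) in the Nos2 cluster, 83.9 ± 19.1 (n = 4) in the Cnmd cluster and 52.4 ± 28.1 (n = 4) in the Myoc cluster. The outer annulus-like Aspn and Cenpf clusters had 2 UMIs each in injured round 2 (1.04 and 2.60 CPM), and macrophage-like cells of the injured libraries had none, which allows up to 16.8 and 9.89 CPM. Bmp4 differed from the other ligands in where it was found. Endothelial-like cells of round 1 had 7 UMIs in 7 control cells and 13 in 37 injured cells (75.1 CPM), while those of round 2 had none in 5 control and 16 injured cells, numbers too small to set a level. The Dpep1 cluster, which was left without a name, held 7 of the 14 Bmp4 UMIs of control round 2, in 267 cells (61.4 CPM). In the Myoc cluster it stood between 7.74 and 18.7 CPM and in the Cnmd cluster at 2 UMIs over all 4 libraries.

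**Figure D1:**
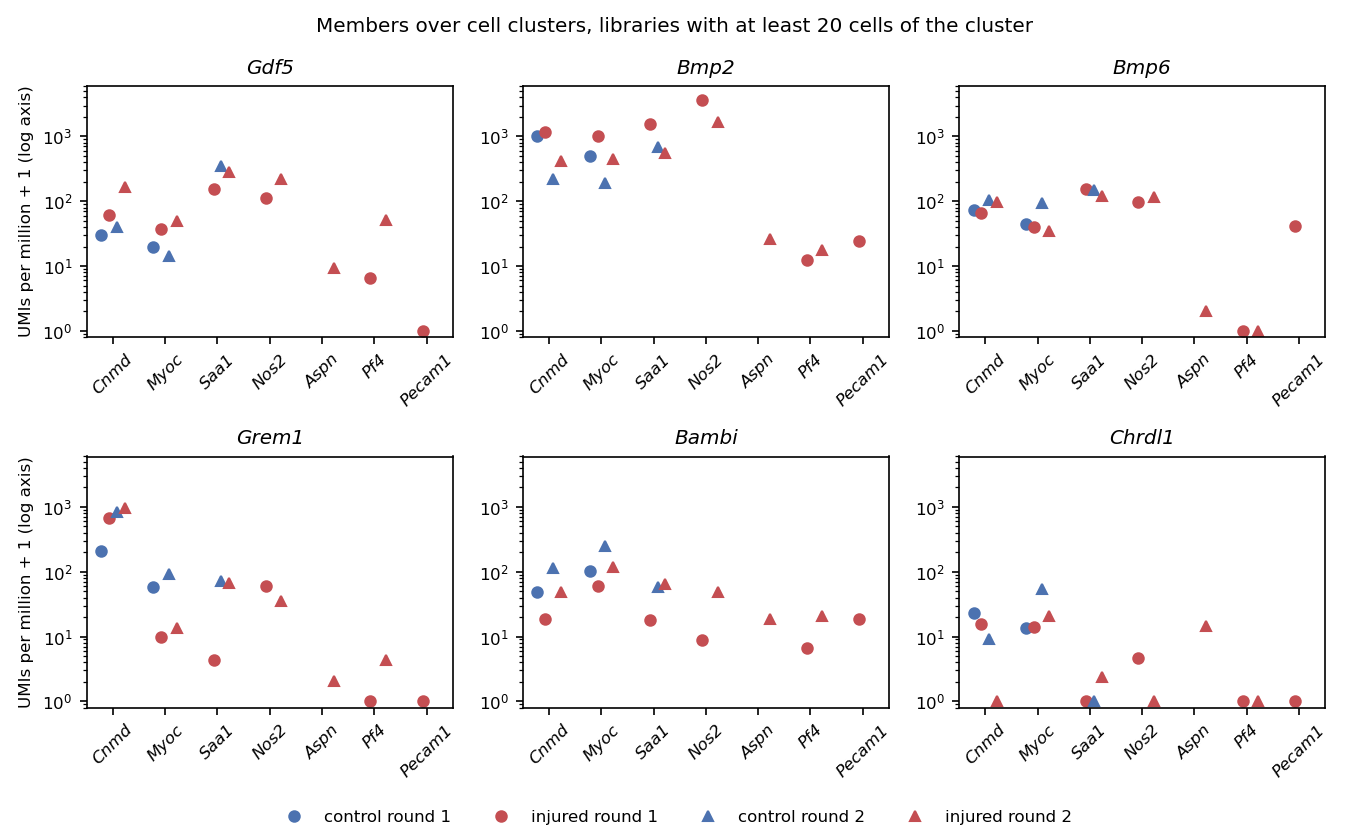
Level of 6 of the genes (CPM plus 1, log axis) in 7 clusters, 1 point per library with at least 20 cells of the cluster, circles for round 1 and triangles for round 2, blue for control and red for injured. Grem1 is highest in all 4 libraries of the Cnmd cluster, Bmp2 in the Nos2 cluster, and Gdf5 in the Saa1 and Nos2 clusters.

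Grem1, the gremlin antagonist, marked the Cnmd cluster: it stood at 210, 678, 834 and 955 CPM there (control and injured of round 1, then of round 2). No other cluster of at least 20 cells exceeded 126 CPM in any library. The Myoc cluster ranged from 8.97 to 91.9 CPM, the Saa1 cluster from 3.34 to 70.8 and the Nos2 cluster from 33.8 to 59.4. Nog, the noggin antagonist, was also highest in the Cnmd cluster but rested on few UMIs: 12, 3, 18 and 9, against 1, 5, 4 and 5 in the Myoc cluster.

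Chrdl1 (chordin-like 1) and Chrd (chordin) were low, with 178 and 199 UMIs in all. Both were found in the Myoc cluster, Chrdl1 at 12.5 to 52.5 CPM and Chrd at 6.25 to 32.8 CPM, in the Cnmd cluster, Chrdl1 at 0 to 22.0 CPM and Chrd at 3.59 to 24.9 CPM, and in the matrix-producing Aspn cluster of outer annulus-like cells, at 13.5 and 14.5 CPM in the injured round 2 library. The Cnmd cluster held 6 of 12 and 24 of 41 Chrd UMIs of the control libraries, and 13 of 16 and 8 of 34 Chrdl1 UMIs. In injured round 1 the Nos2 cluster held 18 of 31 Chrd and 13 of 35 Chrdl1 UMIs, and in injured round 2 the Saa1 cluster held 23 of 115 Chrd UMIs. Chrd also had 4 UMIs in the 29 nucleus pulposus-like cells of control round 1 (63.9 CPM) and none in the 66 of control round 2. Neither had a UMI in endothelial-like cells. Bambi was highest in the Myoc cluster with 59.0 to 247 CPM per library, and lowest among the inner annulus-like clusters in the Nos2 cells of injured round 1 at 7.81 CPM.

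In the inner annulus-like class, Gdf5 and Bmp2 stood higher and Grem1, Nog, Chrdl1 and Bambi lower in injured than in control discs in both rounds, and these 6 genes passed the test once the round was a block in the fit. Both groups of a round came from the same mice, which is what the block stands for. In that fit (edgeR's quasi-likelihood test, Benjamini-Hochberg adjusted over 10843 genes) 808 genes were called, 7.45% of those tested, and of the 9 genes 2 were higher and 4 lower. Without the block no gene was called (0%), 902 had an unadjusted p under 0.05, and DESeq2 called 132, Grem1 among them at an adjusted p of 0.0147. The median log2 fold change was -1.66 over the 4 secreted antagonists and 0.82 over the 4 ligands, against -0.03 over all genes tested. It was -1.32 over the 4 other BMP and GDF ligands tested and -0.17 over the 10 other extracellular antagonists and modulators tested. The 9 genes were chosen with earlier results of these data known. With 2 libraries a group these p-values measure the spread between these libraries only.

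Gdf5 stood at 28.0 CPM in control and 107 CPM in injured cells of round 1, and at 70.6 and 177 CPM in round 2. Both injured libraries were above both controls. The injured to control ratio was 3.83 in round 1 (95% interval 2.51 to 6.15, exact conditional binomial, counting error only) and 2.51 in round 2 (2.08 to 3.06). On the log2 scale the rise was 1.73 ± 0.28 (SE) with the block, adjusted p 0.000456, and 1.67 ± 0.51, adjusted p 0.400, without it. The latter was 2.47 without the control library of round 2.

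Bmp2 went from 912 to 2781 CPM in round 1 and from 358 to 681 CPM in round 2. The groups overlap, since control round 1 lay above injured round 2, but the difference had the same sign in each round, with ratios of 3.05 (2.83 to 3.29) and 1.91 (1.75 to 2.08). Its log2 fold change was 1.40 ± 0.37 with the block (adjusted p 0.0227) and 1.51 ± 0.71 without it (adjusted p 0.645). The latter was 0.28 when the injured library of round 1, which held 16252 of the 22464 Bmp2 UMIs of this class, was left out.

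The other ligands did not pass either test. Bmp6 was at 62.3 and 98.7 CPM in control and injured cells of round 1 and at 109 and 84.0 CPM in round 2, so the rounds differed in sign (log2 fold change 0.24 ± 0.27 with the block, adjusted p 0.660). Bmp4 stood at 5.09, 2.40, 3.59 and 3.20 CPM in the same order, on 4, 14, 6 and 23 UMIs. The injured-to-control ratios of Bmp4, 0.471 (0.148 to 1.96) and 0.892 (0.353 to 2.68), had intervals that include 1. Outside cells Bmp4 stood at 11.7 CPM in injured round 1, above its level in the class.

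**Figure D2:**
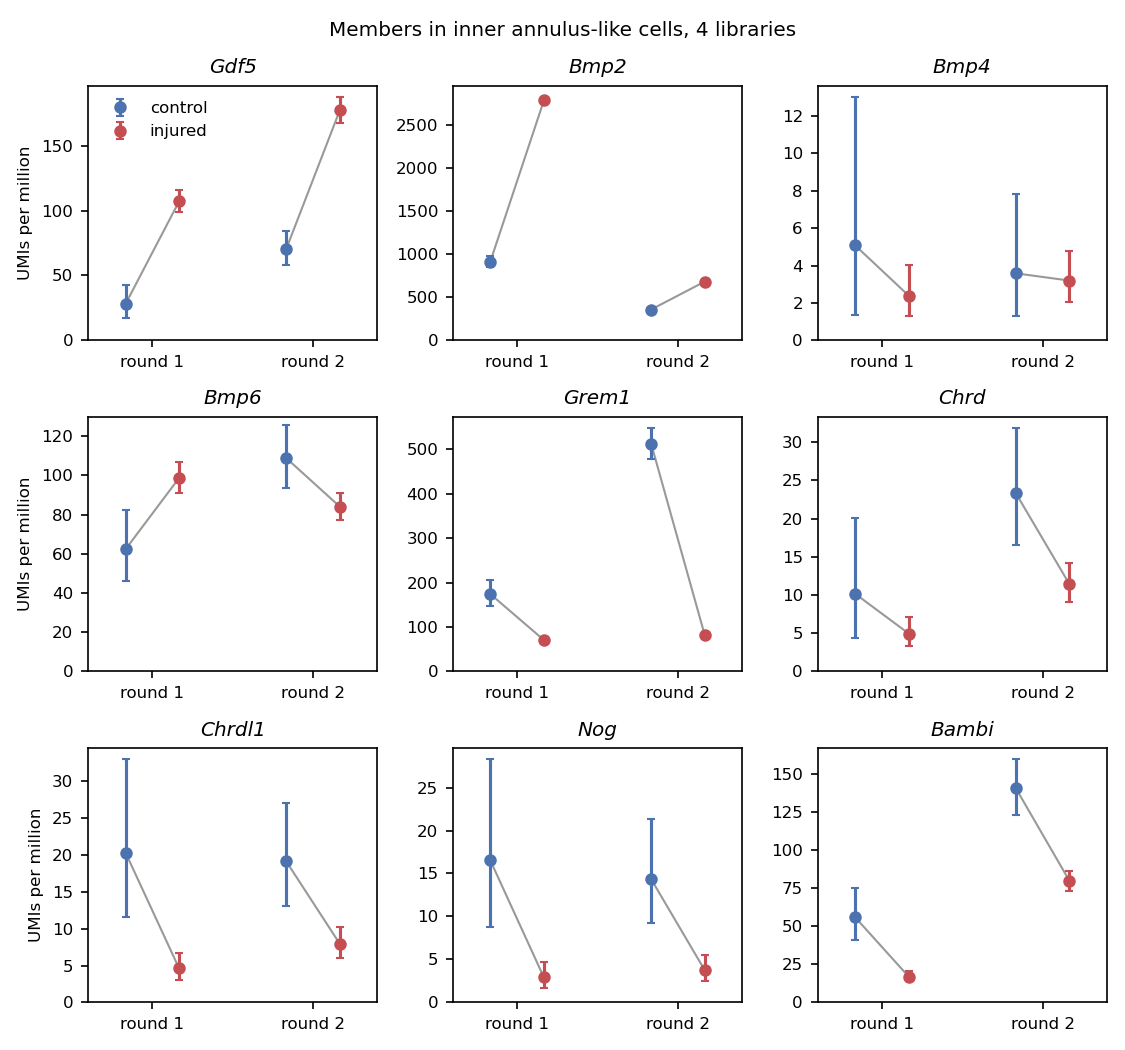
Level of each gene (CPM, linear axis from 0) in inner annulus-like cells of the 4 libraries, control in blue and injured in red, lines joining libraries of 1 round, bars giving 95% Poisson intervals of the counts. Gdf5 and Bmp2 are higher after injury in both rounds, Grem1, Nog, Chrdl1, Chrd and Bambi lower in both, and Bmp6 differs in sign between rounds.

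Among the antagonists, Grem1 stood at 174 CPM in control and 70.7 CPM in injured cells of round 1, and at 513 and 82.1 CPM in round 2. Both controls were above both injured libraries. The ratio was 0.406 (0.334 to 0.496) in round 1 and 0.160 (0.144 to 0.178) in round 2. The log2 fold change was -1.86 ± 0.31 with the block (adjusted p 0.000579) and -2.01 ± 0.52 without it (adjusted p 0.316). The latter was -1.07 without the control library of round 2.

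Nog fell by 2.02 ± 0.46 (log2, adjusted p 0.00858 with the block), from 16.5 to 2.91 CPM in round 1 and from 14.4 to 3.76 CPM in round 2, on 13, 17, 24 and 27 UMIs. Chrdl1 fell by 1.46 ± 0.40 (adjusted p 0.0267 with the block), from 20.3 to 4.62 CPM and from 19.1 to 7.93 CPM. Without the block it was -1.48, and -0.59 with cells assigned by marker score. The groups did not overlap for either gene. In injured round 1 both were near their levels outside cells (barcodes with under 250 genes), which were 2.26 CPM for Nog and 4.51 CPM for Chrdl1. In round 2 the levels outside cells were 1.68 and 2.03 CPM for Nog, and 4.27 and 2.03 CPM for Chrdl1, in the control and injured library. The part of free RNA in either difference was not tested. Chrd went from 10.2 to 4.96 CPM and from 23.3 to 11.4 CPM, and did not pass (log2 fold change -0.85 ± 0.38, adjusted p 0.191).

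Bambi, the pseudoreceptor, was at 56.0 and 16.9 CPM in control and injured cells of round 1 and at 141 and 79.7 CPM in round 2. The groups overlap because injured round 2 lay above control round 1, while the ratios, 0.303 (0.210 to 0.442) and 0.567 (0.487 to 0.663), were below 1 in both rounds. Its log2 fold change with the block was -1.04 ± 0.30 (adjusted p 0.0346), and without the block -0.83 ± 0.74, which shrank to -0.08 without the injured library of round 1 and to -0.06 without the control library of round 2.

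The clusters that make up the class differed between the groups in their share of cells. Of Grem1 UMIs in all cells, 87.3% and 93.2% lay in Cnmd cells in the control libraries and 45.1% and 52.7% in the injured ones, while the Cnmd cluster made up 46.1% and 24.4% of the control libraries but 4.79% and 4.69% of the injured libraries. Of Gdf5 UMIs, the Saa1 and Nos2 clusters held 29.4% and 63.0% in injured round 1 and 62.5% and 19.3% in injured round 2. Of Bmp2 UMIs, the Nos2 cluster held 80.4% in injured round 1 and 37.7% in injured round 2, where the Saa1 and Myoc clusters held 32.7% and 23.9%. In these libraries fewer cells of a kind and fewer transcripts per cell add up in a class sum, so those 2 of its clusters that had 20 cells or more in each library were compared on their own. These comparisons were added after the data had been seen. A cluster can itself be mixed. With the shared barcodes kept, the Myoc cluster split in 2. The part led by M1ap and Fmod held 17, 58, 16 and 298 cells, and the part led by Myoc and Angptl7 28, 17, 46 and 67. The former made up more of the injured than of the control cells. The share of this shift in the differences within the Myoc cluster was not tested.

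Within the Myoc cluster Grem1 was lower after injury. It stood at 56.2 CPM (9 UMIs) in control and 8.97 CPM (7 UMIs) in injured cells of round 1, and at 91.9 (42 UMIs) and 12.5 CPM (34 UMIs) in round 2. Both controls were above both injured libraries, with ratios of 0.160 (0.0505 to 0.482) and 0.136 (0.0841 to 0.219). It fell by 2.64 ± 0.44 on the log2 scale, adjusted p 0.0444 without a block (26 of 6246 genes called, 0.416%) and 0.000943 with it (375 called, 6%). Leaving out control round 2 ended the call (-2.18, adjusted p 0.462). Over 15 alternatives the value lay between -3.09 and -2.18, and 14 were called. Barcodes with under 250 genes, taken as RNA outside cells, held Grem1 at 11.3 CPM in injured round 1, 46.3 CPM in control round 2 and 15.9 CPM in injured round 2, and the matrix of control round 1, which leaves out barcodes of few UMIs, gives no such value. The levels of the injured Myoc cells were thus no higher than those outside cells. In injured round 2 the Aspn and macrophage-like cells held Grem1 at 1.04 and 3.30 CPM, and the Saa1 and Nos2 cells at 65.7 and 33.8 CPM. How much free RNA a Myoc cell takes up was not measured, so its injured levels are not read as expression. The size of the fall is likewise not read as that of a change between 2 measured levels. Grem1 also passed the filter on low counts in this cluster through its controls alone. Without that filter it was -2.49 (adjusted p 0.000138). RNA outside cells, too, held more Grem1 in the control than in the injured library of round 2. The part of free RNA in this difference, and in that between the clusters, was not tested.

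Within the Cnmd cluster, by contrast, the 210 CPM of control round 1 stood against 678 CPM in injured round 1, and the 834 CPM of control round 2 against 955 CPM in injured round 2. The log2 fold change of Grem1 there was 0.69 ± 0.68, adjusted p 1.000, and 0.97 ± 0.39 with the block, adjusted p 0.638. Without the block it was 0.0097 when control round 1 was left out and 2.09 when control round 2 was. No gene was called in this cluster without the block (0% of 5602, 122 at an unadjusted p under 0.05 and none by DESeq2), and 9 with it (0.161%). The difference between the clusters was tested itself, with each library as a block: the injury difference of Grem1 in the Myoc cluster minus that in the Cnmd cluster was -3.49 ± 0.50 (log2), adjusted p 0.0110, 1 of 10 genes called among 6800 (0.147%). It ranged from -4.36 to -3.00 without each library in turn, all called. With the shared barcodes of round 1 kept it was -3.83 and missed the threshold (adjusted p 0.0588).

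**Figure D3:**
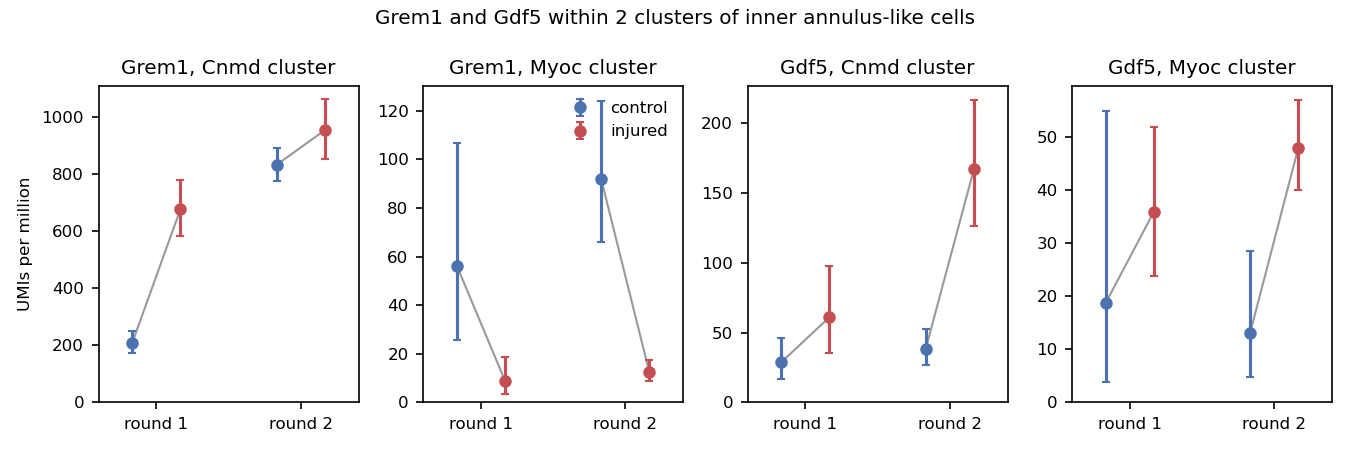
Grem1 and Gdf5 (CPM, linear axes from 0 that differ in scale) in the Cnmd and Myoc clusters, control in blue and injured in red, lines joining libraries of 1 round, bars giving 95% Poisson intervals. Grem1 is lower after injury in both rounds of the Myoc cluster and not in the Cnmd cluster, and Gdf5 is higher in both rounds of both clusters.

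Of the 7 other genes of the set that could be tested, none was called for a difference between these clusters. Gdf5 was higher after injury in each, from 28.8 to 61.0 CPM and from 38.3 to 167 CPM in the Cnmd cluster (log2 fold change 1.77 ± 0.40 with the block, adjusted p 0.153) and from 18.7 to 35.9 CPM and from 13.1 to 47.9 CPM in the Myoc cluster (1.72 ± 0.51, adjusted p 0.0599). The Myoc controls held only 3 and 6 Gdf5 UMIs, and the round 1 ratio there, 1.92 (0.592 to 9.85), had an interval that includes 1. The difference between the clusters for Gdf5 was -0.21 ± 0.69. Bmp2 rose in the Myoc cluster with the block (1.23 ± 0.28, adjusted p 0.0165), from 494 to 1028 CPM and from 190 to 445 CPM, and its value in the Cnmd cluster was 0.62 ± 0.35 (adjusted p 0.861), a difference of 0.52 ± 0.38. In the Myoc cluster the groups overlap for Bmp2. Without the block it was 1.19 there and not called, and it ran from 0.63 to 2.06 over the alternatives. Bambi had log2 fold changes of -1.22 ± 0.39 in the Cnmd cluster and -0.85 ± 0.27 in the Myoc cluster with the block, adjusted p 0.425 and 0.0756. Bmp6 in the Myoc cluster was at -0.95 ± 0.38 (adjusted p 0.155) and in the Cnmd cluster at -0.08 ± 0.35 (adjusted p 0.999).

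**Figure D4:**
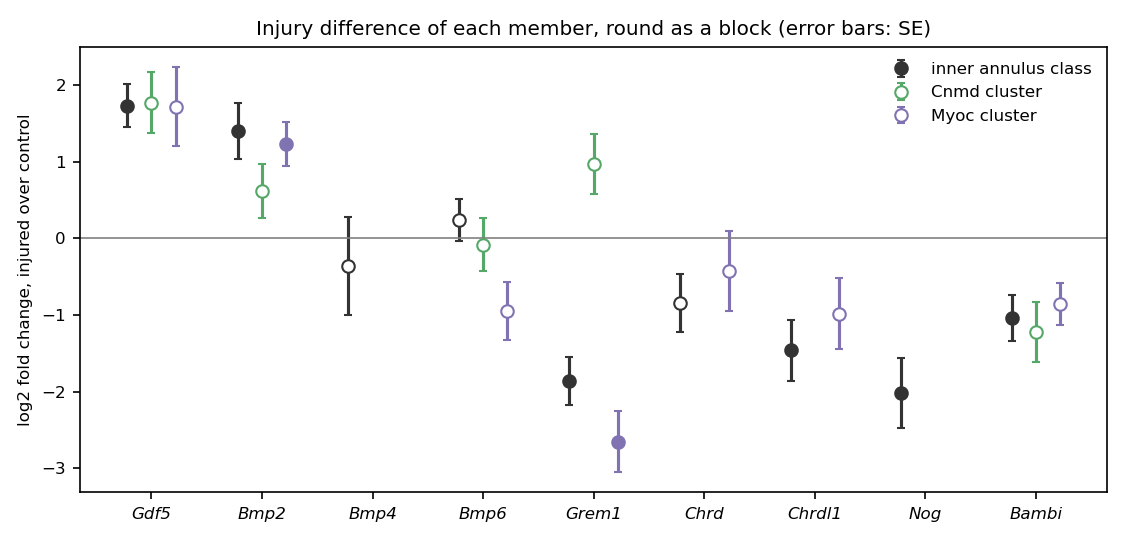
Log2 fold change of each gene, injured over control, in the inner annulus-like class and within its Cnmd and Myoc clusters, with the round as a block. Bars are standard errors, filled points have an adjusted p under 0.05, and genes with too few UMIs in a cluster have no point there. Grem1 is the gene whose points lie furthest apart, at 0.97 in the Cnmd cluster and -2.65 in the Myoc cluster. Its levels in injured Myoc cells were no higher than those outside cells, so the size of the Myoc value is uncertain.

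Markers of other cell types were measured in the same cells. In the Myoc cluster the 12 macrophage markers summed to between 0 and 11.5 CPM per library and the 10 endothelial markers to between 2.19 and 7.37 CPM, with Adgre1, Cdh5 and Cldn5 at 0 in all 4. The 9 mural markers summed to between 234 and 446 CPM, with Myh11 and Abcc9 at 0 in all 4, and the 11 nucleus pulposus markers to between 576 and 782 CPM, with Shh and Noto at 0. In the Cnmd cluster the 7 osteoblast markers summed to 1273 CPM in control round 1 and to between 14.9 and 71.8 CPM in the other libraries, and the part of this in the Grem1 level of that library was not tested. Median mitochondrial shares were highest in control round 2: in the same order of libraries they were 2.69%, 2.40%, 7.45% and 3.73% in the inner annulus-like class, 2.99%, 2.28%, 8.86% and 5.51% in the Cnmd cells and 2.50%, 2.51%, 5.13% and 3.63% in the Myoc cells. Median UMIs per Myoc cell were 4319, 9366, 5881 and 6481. Their part in the differences was not tested.

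Summed over all cells, 413 of 11848 genes were called with the block (3.49%), among them Grem1 (log2 fold change -2.01 ± 0.34, adjusted p 0.0190), Gdf5 (1.57 ± 0.27, adjusted p 0.0192) and Bambi (2.30-fold lower, adjusted p 0.0446), while Nog missed the threshold narrowly (-2.13 ± 0.48, adjusted p 0.05002). Without the block 2 genes were called (0.0169%), none of them among the 9. Over the disc cells alone, that is the inner and outer annulus-like and nucleus pulposus-like cells, none of the 9 was called with the block (164 of 11197 genes, 1.46%) or without it (2 genes, 0.0179%). The lowest adjusted p among them was 0.0657, for Gdf5 with the block. UMIs outside cells held Bmp2 at 202 CPM in injured round 1, and at 20.2 and 42.6 CPM in the control and injured libraries of round 2.

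Shares of cells with a UMI depend on depth, so each cell was thinned to 1000 UMIs, which left out 3, 5, 29 and 23 inner annulus-like cells. Gdf5 was then found in 1.48% of control and 9.51% of injured inner annulus-like cells of round 1, and in 6.23% and 14.7% of round 2 (before thinning 10.1%, 43.7%, 14.6% and 43.8%). Bmp2 was found in 36.3% and 62.6% in round 1 and in 15.02% and 32.4% in round 2. Grem1 went the other way, from 13.3% to 3.44% and from 27.8% to 5.40%. Macrophage-like cells of the injured libraries gave 0% and 2.53% for Gdf5, 0% and 1.27% for Bmp2, and 0% for Grem1 in 31 and 79 cells, at median depths of 3335 and 3285 UMIs against 9171 and 5406 in the inner annulus-like cells.

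Nos2 cells of the injured libraries held Bmp2 in 80.2% and 73.1% of thinned cells, more than any other cluster shown. Grem1 in the Cnmd cluster was found in 15 of 100 control and 6 of 35 injured cells of round 1 and in 37.7% and 42.5% of round 2, with overlapping intervals within each round. In round 2, among Grem1-positive inner annulus-like cells 6.58% of control and 13.6% of injured cells also had Bmp2, against 18.3% and 33.5% of Grem1-negative cells. In round 1 the order was the opposite, 44.4% against 35.0% in the control and 76.5% against 62.1% in the injured library, on 18 and 17 Grem1-positive cells.

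**Figure D5:**
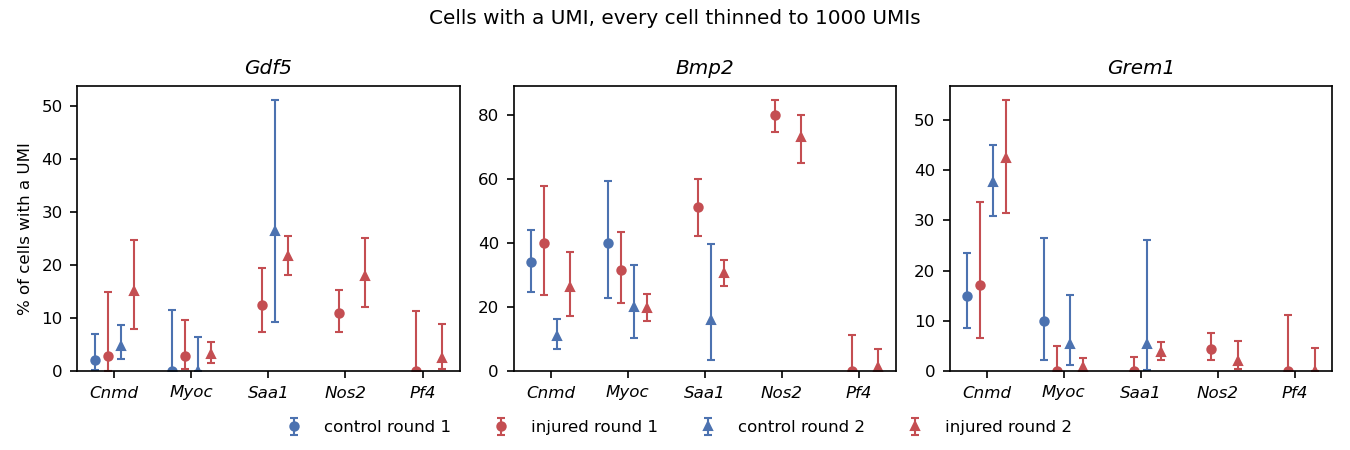
Percentage of cells with at least 1 UMI of Gdf5, Bmp2 and Grem1 after thinning every cell to 1000 UMIs, by cluster and library (circles round 1, triangles round 2, blue control, red injured), with 95% exact binomial intervals, for libraries with at least 10 such cells. Bmp2 lies at 80.2% and 73.1% in the Nos2 cluster, Grem1 is highest in the Cnmd cluster, and the Pf4 cluster of macrophage-like cells is shown for comparison.

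Other genes of the pathway were counted by list. In the inner annulus-like class with the block, 3 of the 4 other BMP and GDF ligands that had enough UMIs (of 17) were called: Gdf6, a close relative of Gdf5, rose by 1.16 ± 0.29 (log2, adjusted p 0.0154), from 21.6 to 53.6 and from 41.9 to 73.1 CPM. Bmp5 fell by 2.34 ± 0.46 (adjusted p 0.00270), from 14.0 to 4.11 and from 19.1 to 2.23 CPM, and Bmp3 went from 14 UMIs to 1 and from 9 to 2 (adjusted p 0.000174). Bmp3 passed the filter on low counts through its control libraries alone, so its call adds nothing to that count and no fold is given. Of 19 other extracellular antagonists and modulators 10 were tested and 1 was called, a share near the 7.45% of all genes in this fit: the follistatin-like Fstl1, which rose by 1.17 ± 0.28 (adjusted p 0.0109).

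On the receiving side, none of the 11 receptors and co-receptors tested (of 13) and none of the 10 SMAD pathway genes was called in this class. The receptors Acvr1, Bmpr2 and Bmpr1a had log2 fold changes of 0.23 ± 0.28, -0.28 ± 0.26 and -0.44 ± 0.28. Of 10 BMP-responsive genes tested (of 13), Id4 alone was called, again a share near the 7.45% of all genes, lower by 1.00 ± 0.27 (fall on the log2 scale, adjusted p 0.0244). Id1, at 150 and 182 CPM in control and injured cells of round 1 and 423 and 270 CPM in round 2, had a log2 fold change of -0.07 ± 0.29, Id3 of -0.74 ± 0.32 (adjusted p 0.173), Smad6 of 0.11 ± 0.34 and Smad7 of 0.12 ± 0.30. The median over the BMP-responsive genes was -0.03, the same as over all genes. In the Myoc cluster with the block, Id4 fell by 1.39 ± 0.31 (adjusted p 0.0154) and the SMAD co-repressor Ski by 0.92 ± 0.26 (adjusted p 0.0492), and the receptor Bmpr1a was 2.30-fold lower (adjusted p 0.0330). Without the block no gene of these lists was called in either.

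The genes whose levels ran most like those of the 9 were sought over 28 sums, 1 per cluster and library with at least 20 cells, among 7982 genes. For Gdf5 the closest was Gdf6 (Pearson r of log2 levels 0.94), followed by Stc2 and Rgcc (both 0.88). For Bmp2 they were Spry2 (0.93), Fgf2 (0.93) and Foxc1 (0.91), for Bmp6 Foxq1 (0.91), Ivns1abp (0.90) and Cobll1 (0.90), and for Grem1 Frzb (0.92), Timp4 (0.90) and 1520401A03Rik (0.89). The antagonists Chrd (Cd164, 0.79) and Chrdl1 (Igfbp6, 0.80) and Bambi (Junb, 0.78) had no match as close. Among the 9 themselves Bmp2 and Bmp6 were most alike (0.85), then Gdf5 and Bmp2 (0.72) and Bmp6 and Grem1 (0.70). The sums share libraries and depth, so these correlations are descriptions.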

How the data were processed

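Counts of UMIs per gene and barcode were deposited by the authors for 4 libraries (2 control, 2 injured). Per the file headers the round 1 control matrix comes from Cell Ranger 6.0.0 and lists 444 barcodes of at least 502 UMIs, and the other 3 come from Cell Ranger 4 and list every barcode with a UMI. The build is mm10, per the submitters' processing notes. Gene positions are from GENCODE M21 (GRCm38), and all comparisons start from these raw counts.

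Barcodes with at least 250 genes were kept. Round 1 barcodes found in both matrices were left out of the control library where the injured one held at least 0.3 times as many UMIs, and out of the injured library where the ratio was 0.3 to 3. Counts were scaled to 10000 UMIs per cell and log-transformed, and clustered (scanpy 1.11.5, 2000 variable genes less those of the pathway, 30 components, 20 neighbours, Leiden resolution 1). A cluster was named from at least 3 markers. Clusters of shared-barcode type stayed unnamed, by a rule set after seeing the data. No doublets were removed in the reported values.

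Counts were summed per library and class, and tested with edgeR 4.0.16 (R 4.3.3): quasi-likelihood test, TMM, filterByExpr, Benjamini-Hochberg over all genes tested, called under 0.05. Same-round libraries come from the same mice, which makes the replicate block a true pairing. Their deviations from the group means correlated at 0.54 over 11197 genes. Alternatives included DESeq2 1.42.0. All 9 genes were named, other pathway genes where called or among the 4 of their list with the most UMIs, and the 3 most similar genes for members with at least 100 UMIs. Some pathway genes that this rule names are not reported here. These genes and the lists were chosen with earlier results of these data known. The outer annulus comparison, and that of inner with outer, were not made because a control library held 5 cells. The limit a count of 0 allows is 3 UMIs, and intervals (95%) cover counting error only.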

Additional observations from a re-analysis of the deposited data

Results flagged for a closer look

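Grem1 differed between the Myoc and Cnmd clusters in its injury difference by the test of that difference itself (-3.49 ± 0.50, log2, adjusted p 0.0110 by edgeR with each library as a block). Both control libraries were above both injured libraries in the Myoc cluster, and the injured library was the higher one in each round of the Cnmd cluster. The comparison was chosen after the data had been seen and rests on 9, 7, 42 and 34 Grem1 UMIs in the Myoc cells. In the injured libraries these cells had Grem1 at 8.97 and 12.5 CPM, no higher than the 11.3 and 15.9 CPM of barcodes outside cells, and in control round 2 at 91.9 CPM against 46.3 CPM outside cells. How much free RNA a cell takes up was not measured. The size of the difference is therefore not read as that of a change between 2 measured levels. The part of free RNA in the difference was not tested.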

How the results depend on the processing

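Counts of genes called rose with the replicate block, to 413 over all cells (2 without it), 164 over disc cells (2), 808 in the inner annulus-like class (0), 375 in the Myoc cluster (26) and 9 in the Cnmd cluster (0), and with the shared barcodes kept as well to 736, 729, 1020, 522 and 52. With those barcodes kept and no block they were 14 over all cells, 17 in the Myoc cluster and 0 for the difference between the Myoc and Cnmd clusters (10). Without the filter on low counts 360, 345, 266, 216 and 20 genes were called in the order above, and DESeq2 called 134, 144, 132, 83 and 0. At least 500 genes per cell, or under 10% mitochondrial UMIs, left 0 calls over all cells and 0 over disc cells, and the latter gave 14 in the inner annulus-like class. Classes by marker score gave 6 calls over disc cells and 11 in the inner annulus-like class. Leaving out each library in turn gave 4 to 235 calls over all cells, 18 to 132 over disc cells, 0 to 168 in the inner annulus-like class, 0 to 31 in the Cnmd cluster, 4 to 171 in the Myoc cluster and 28 to 75 for the difference between the clusters, where a lone library is assumed to vary like the other group.

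Of 141 values of the 9 genes in the inner annulus-like class under the alternatives, 140 kept the direction and 18 passed the threshold where the reported fit without a block did not. The 1 that changed sign was Bmp6, whose log2 fold change ran from -0.067 to 0.66 over the libraries left out. In the Cnmd cluster, that of Grem1 ran from 0.0097 to 2.09, that of Bmp2 from -0.40 to 1.84 and that of Bmp6 from -0.44 to 0.31, and for Gdf5 the difference between the clusters ran from -0.85 to 0.51. The cause was not tested. Under the replicate block a library left out leaves a single pair and no test. The clusters within the class, their difference, the naming of clusters of shared barcodes and the block with shared barcodes kept were added after the data had been seen. The outer annulus-like comparison and that of inner with outer were not run. Depth limits Bmp4, Nog, Chrd and Chrdl1 most, with 86 to 199 UMIs each over all cells.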
